A study of Mus musculus with 10 samples.

Results

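The 10 genes described here mark leukocytes as a whole, T cells, natural killer (NK) and cytotoxic T cells, and B cells, and were read in the livers of tumour-bearing mice with and without cachexia. These 10 genes were chosen by name from the 43629 genes of the deposited count table, and 9 of them passed the filter on low counts. Ptprc, Coro1a, Laptm5 and Cd52 are expressed across leukocytes, Cd3e and Cd3g encode chains of the T cell receptor complex, Nkg7 and Ccl5 mark NK cells and cytotoxic T cells, and Cd79a and Cd79b encode the signalling chains of the B cell receptor.

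All livers came from male KL mice, a conditional lung tumour model with Lkb1 flox/flox backcrossed to FVB, which were adult when tumours were started by intranasal adenovirus carrying Cre under the CMV promoter. The study called mice CACS (cancer anorexia–cachexia syndrome) by the loss from their peak body weight and the others NCACS. The labels give 5 NCACS mice with weight changes between -14 and -3% and 5 CACS mice with changes between -33 and -29%, 1 liver per mouse. Both groups therefore share the genotype, the virus and the lung tumours, the CMV promoter does not restrict Cre to one cell type, and no tumour-free liver is compared here. Libraries held 31945328 to 38306888 counts for NCACS and 31459179 to 40746178 for CACS mice. Each p-value weighs a difference between the groups against the spread between these mice. SE stands for standard error.

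The liver holds resident macrophages (Kupffer cells), T cells, NK cells and B cells in and along its sinusoids, beside the hepatocytes that supply most of its RNA. Ptprc encodes CD45, a tyrosine phosphatase carried by nucleated blood cells, Coro1a an actin-binding coronin, Laptm5 a lysosomal membrane protein and Cd52 a small lipid-anchored surface glycoprotein. The receptor chains pass on antigen signals through paired tyrosines in their cytoplasmic tails, the immunoreceptor tyrosine-based activation motif (ITAM). Nkg7 encodes a membrane protein of cytotoxic granules, and Ccl5 a chemokine that attracts T cells and other leukocytes.

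The shared feature of the receptor chains is visible in their coding sequence. A search of the longest coding sequence of each of the 10 genes in GENCODE M21 for tyrosine codons in ITAM spacing found 1 such motif in each of Cd3e, Cd3g, Cd79a and Cd79b and none in the other 6. The 4 stretches are given below because they set the T and B cell genes apart from the rest, with the paired tyrosine codons in capitals. They lie at chr9:44999549-45000440 (reverse strand), chr9:44970735-44971268 (reverse), chr7:24901296-24901469 (forward) and chr11:106311867-106312012 (reverse) of GRCm38, and each crosses an intron, from coding exon to coding exon.
Cd3e: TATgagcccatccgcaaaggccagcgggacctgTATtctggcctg
Cd3g: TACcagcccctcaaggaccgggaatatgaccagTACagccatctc
Cd79a: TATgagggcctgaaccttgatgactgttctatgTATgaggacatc
Cd79b: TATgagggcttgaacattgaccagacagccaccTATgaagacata
All 4 stretches were 45 bases long with 30 bases between the tyrosine codons.

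Promoter windows were listed by RefSeq (GRCm38.p6) for 7 of the 10 genes. The core motif of ETS factors such as PU.1, GGAAGT, was searched on both strands, and it occurred in the windows of 4 of these 7 genes (Ptprc, Laptm5, Cd79a and Cd3e) and in those of 26.5% of all 27025 genes with a window. The windows of 1 pan-leukocyte, 1 T cell and 1 B cell gene are shown, with the motif or its reverse complement ACTTCC in capitals. They are chr1:138175256-138175555 (reverse strand), chr9:45009562-45009861 (reverse) and chr7:24897247-24897546 (forward), each spanning an annotated transcription start.
Ptprc: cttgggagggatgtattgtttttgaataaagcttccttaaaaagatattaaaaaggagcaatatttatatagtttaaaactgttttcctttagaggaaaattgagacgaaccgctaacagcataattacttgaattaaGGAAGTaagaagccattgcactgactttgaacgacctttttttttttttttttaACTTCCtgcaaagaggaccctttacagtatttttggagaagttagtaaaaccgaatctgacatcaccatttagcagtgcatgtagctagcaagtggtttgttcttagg
Cd3e: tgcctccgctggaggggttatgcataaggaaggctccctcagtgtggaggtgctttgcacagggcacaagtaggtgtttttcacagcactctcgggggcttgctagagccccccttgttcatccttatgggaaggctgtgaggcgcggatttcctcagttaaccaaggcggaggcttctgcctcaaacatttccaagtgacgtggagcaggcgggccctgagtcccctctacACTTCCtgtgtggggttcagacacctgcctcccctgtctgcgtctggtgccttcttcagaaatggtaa
Cd79a: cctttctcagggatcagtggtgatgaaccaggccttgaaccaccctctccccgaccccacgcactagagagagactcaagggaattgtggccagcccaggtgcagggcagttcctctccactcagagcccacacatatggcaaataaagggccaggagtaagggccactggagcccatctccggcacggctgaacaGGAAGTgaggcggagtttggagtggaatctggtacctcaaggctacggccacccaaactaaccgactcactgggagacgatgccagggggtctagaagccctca
A match is a run of letters and does not show that a factor binds there.

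In CACS livers, all 9 genes tested had a lower fitted level than in NCACS livers, but none passed the threshold. Calls required a p-value under 0.05 after Benjamini-Hochberg adjustment over 14143 genes (edgeR, quasi-likelihood), which 3.80% of all genes tested passed, and 1.92% of all genes tested passed as lower in CACS livers. The log2 fold changes of the 9 genes lay between -1.35 (Ccl5) and -0.43 (Nkg7), with a median of -0.68, against a median of -0.01 and a share of 50.6% below 0 over all genes tested. An unadjusted p-value under 0.05 was reached by 3 of the 9 (Ptprc, Cd52 and Cd79a), where 10.3% of all genes tested reached it as lower in CACS livers. DESeq2 and limma-voom also called 0 of the 9 genes, with 3 and 2 genes under 0.05 unadjusted. The levels of the groups overlapped for all 10 genes, as they did for most genes tested, of which 7.07% had no overlap. In whole-liver RNA, fewer cells of a type and less RNA per cell cannot be told apart.

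**Figure D1:**
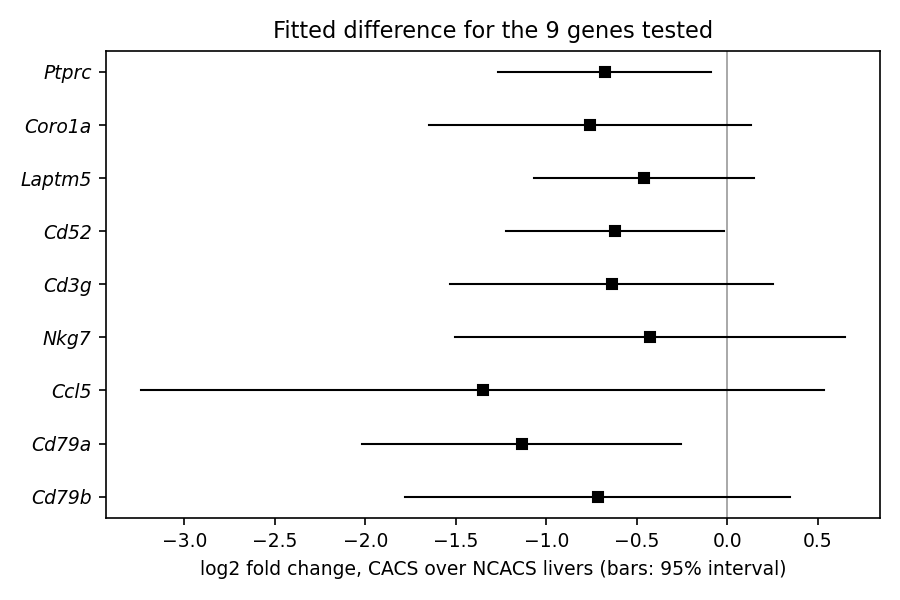
Points give the fitted log2 fold change of the 9 tested genes in CACS over NCACS livers (x axis) and bars its 95% interval. All points lie below 0, and the bars of Ptprc, Cd52 and Cd79a end below it.

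Much of this difference rested on a few livers. Of the 10 livers, NCACS mouse 13 had the highest normalized level of 7 genes, and NCACS mice 12 and 13 held both top places for each of the 4 pan-leukocyte genes. Without NCACS mouse 13, 7 of 9 tested genes were lower in CACS livers, and the log2 fold changes of Nkg7 and Ccl5 were 0.24 and 0.78 (adjusted p = 0.755 and 0.197, edgeR). NCACS mouse 13 had lost 11% and NCACS mouse 12 8% of its weight, inside the NCACS range, and their total counts of 31945328 and 38306888 were the lowest and highest of that group.

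**Figure D2:**
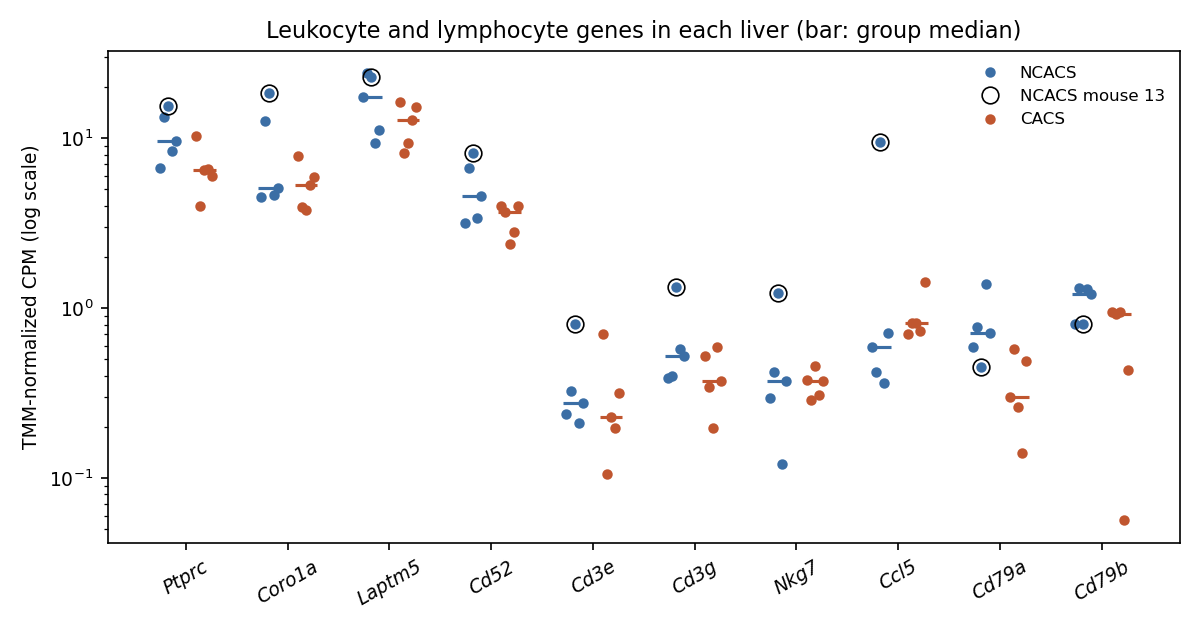
Each point is the TMM-normalized level of a gene in 1 liver, in CPM (counts scaled to a common library size) on a log scale, with bars at group medians and rings around NCACS mouse 13. That mouse tops 7 of the 10 genes but lies low among NCACS livers for Cd79a and Cd79b.

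Among the pan-leukocyte genes, Ptprc (ENSMUSG00000026395, chr1:138062861-138175708, reverse strand of GRCm38) had 225, 535, 478, 278 and 311 counts in NCACS mice 11 to 15 and 413, 153, 198, 234 and 210 counts in CACS mice 16 to 20. After normalization, CACS mouse 16 lay above 3 of the NCACS mice, while the other 4 CACS mice lay below every NCACS mouse. Normalized levels averaged 10.7 ± 3.62 CPM for the NCACS and 6.68 ± 2.28 CPM for the CACS group (SD, n = 5 each). edgeR put the log2 difference of CACS from NCACS livers at -0.68 (SE 0.269, unadjusted p = 0.0277, adjusted p = 0.171), and a two-sided exact permutation test over all assignments of livers to groups gave p = 0.0714. With 1 liver left out, the adjusted p-value ranged from 0.0970 to 0.308.

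Coro1a (ENSMUSG00000030707, chr7:126699773-126707787, reverse strand) had 152, 504, 573, 154 and 165 counts in the NCACS mice and 314, 149, 116, 189 and 206 counts in the CACS mice. NCACS mice 12 and 13 stood well above the other 8 livers, and only 2 CACS livers were below the NCACS median. On the log2 scale CACS livers differed by -0.76 (SE 0.407, adjusted p = 0.305, edgeR) and -0.32 without NCACS mouse 13. The variance among NCACS livers was 152 times that of counting error alone, so depth did not limit this gene.

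Laptm5 (ENSMUSG00000028581, chr4:130913125-130936141, forward strand) had 588, 970, 707, 313 and 364 counts in NCACS and 651, 312, 287, 454 and 534 counts in CACS mice. Its 5 CACS livers were all below the NCACS median, yet NCACS mice 14 and 15 were as low as they were. The fitted log2 difference between groups was -0.46 (SE 0.279, adjusted p = 0.363, edgeR), and -0.30 without NCACS mouse 12.

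Cd52 (ENSMUSG00000000682, chr4:134082448-134095082, reverse strand) had 73 to 267 counts per liver, at normalized levels of 3.175, 6.65, 8.15, 3.37 and 4.57 CPM in NCACS and 3.97, 3.70, 2.38, 2.82 and 3.98 CPM in CACS mice. The CACS livers spanned a narrower range, with CACS mice 18 and 19 below every NCACS liver, at 3.37 ± 0.729 against 5.18 ± 2.16 CPM (SD, n = 5 each). CACS over NCACS livers came to a log2 value of -0.62 (SE 0.275, unadjusted p = 0.0446, adjusted p = 0.218, edgeR), and -0.40 without NCACS mouse 13. Exons of Cd52 share 172 bases with Crybg2 on the opposite strand and those of Coro1a share 26 with Bola2 and those of Cd3e 135 with the antisense gene Gm48719, and the strand setting of the counting is not given in the sources used here.

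The T cell genes were near the lower limit of what this depth resolves. Cd3e (ENSMUSG00000032093, chr9:44998740-45009627, reverse strand) had 8, 13, 25, 7 and 9 counts in NCACS and 28, 4, 7, 7 and 11 counts in CACS mice. CACS mouse 16 had the most counts and NCACS mouse 13 the highest normalized level, and the exact Poisson 95% intervals of these 2 counts, 18.6 to 40.5 and 16.2 to 36.9, overlapped. Cd3e did not pass the low-count filter, and in the fit without a filter its log2 fold change was -0.24 (SE 0.529, adjusted p = 0.844, edgeR). Cd3g (ENSMUSG00000002033, chr9:44969572-44980431, reverse strand), its neighbour on the chromosome, had 13, 16, 41, 19 and 17 counts in NCACS and 21, 13, 6, 21 and 13 counts in CACS mice. NCACS mouse 13 again stood out. edgeR put the log2 difference of CACS from NCACS livers at -0.64 (SE 0.409, 95% interval -1.53 to 0.26, adjusted p = 0.391) and -0.20 without that mouse.

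The NK and cytotoxic genes showed how far 1 liver could set a mean. Nkg7 (ENSMUSG00000004612, chr7:43437073-43438249, forward strand) had 10, 17, 38, 4 and 12 counts in NCACS mice and 15, 11, 14, 11 and 13 counts in CACS mice. The CACS livers were nearly alike, with a variance 0.421 times that of counting error, whereas the NCACS livers held both the highest and the lowest value. On the log2 scale CACS livers differed by -0.43 (SE 0.492, adjusted p = 0.663, edgeR, and exact permutation p = 0.810).

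Ccl5 (ENSMUSG00000035042, chr11:83525778-83530518, reverse strand) had 20, 17, 293, 12 and 23 counts in NCACS and 28, 31, 25, 26 and 50 counts in CACS mice. The fitted log2 difference between groups was -1.35 (SE 0.863, 95% interval -3.24 to 0.53, adjusted p = 0.390, edgeR), although 0 of 5 CACS livers were below the NCACS median. The exact permutation test on log2 CPM gave p = 0.992. With NCACS mouse 13 at 9.48 CPM and the other NCACS livers between 0.361 and 0.7103 CPM, the sign of the Ccl5 difference depended on that mouse.

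Ccl5 did not stand alone in NCACS mouse 13. The genes named in this paragraph were chosen after their values were seen. Cxcl9 and Cxcl10, interferon-induced chemokines that attract T and NK cells through CXCR3, had 6632 and 1179 counts there, against 61 to 758 and 15 to 680 in the other 9 livers. The granzyme gene Gzmb had 31 counts in that liver and 3 to 20 in the others, and the NK receptor gene Ncr1 had 17 and 0 to 7. Not all NK and cytotoxic genes peaked there. The perforin gene Prf1, the granzyme gene Gzma and the NK receptor gene Klrb1c had 6, 10 and 12 counts in that liver. Their highest counts were 7 (NCACS mouse 15 and CACS mouse 20), 13 (NCACS mouse 15) and 38 (CACS mouse 16). In edgeR the group difference of Cxcl9 was -2.88 on the log2 scale (adjusted p = 0.172).

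**Figure D3:**
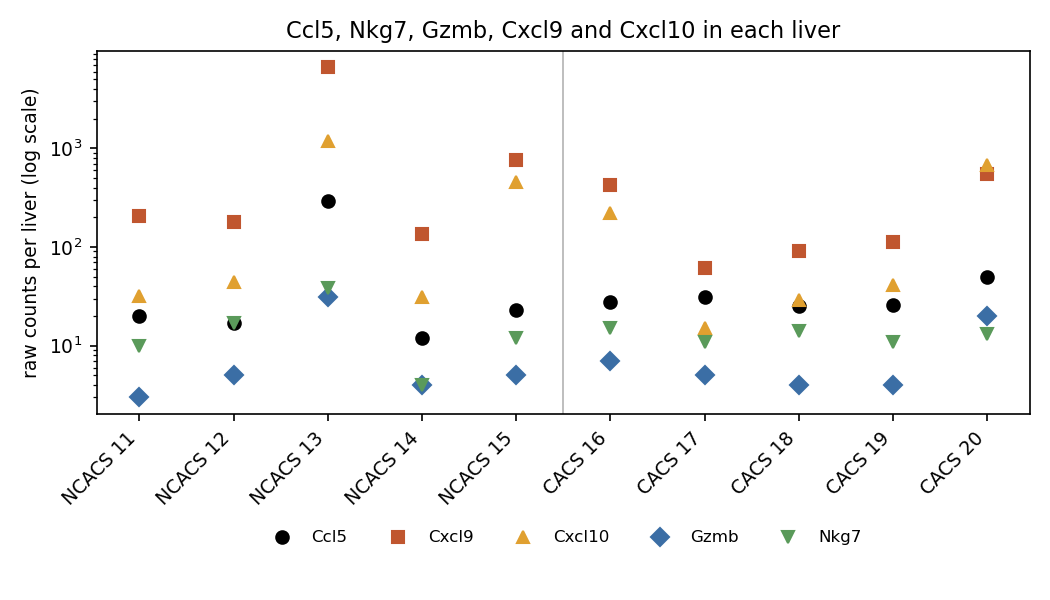
Raw counts per liver, on a log scale, of Ccl5, Nkg7, Gzmb, Cxcl9 and Cxcl10 in each of the 10 livers, with a line between the groups. All 5 genes peak in NCACS mouse 13, where Ccl5 reached 293 counts and Cxcl9 6632.

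The B cell genes followed another pattern. Cd79a (ENSMUSG00000003379, chr7:24897381-24902197, forward strand) had 20, 31, 14, 46 and 23 counts in NCACS mice and 12, 22, 8, 5 and 17 counts in CACS mice. All 5 CACS livers were below the NCACS median of normalized levels, but CACS mice 17 and 20 were above NCACS mouse 13. Mean levels were 0.783 ± 0.358 CPM for the NCACS and 0.353 ± 0.176 CPM for the CACS group (SD, n = 5 each). CACS over NCACS livers came to a log2 value of -1.14 (SE 0.404, 95% interval -2.02 to -0.25, unadjusted p = 0.0161, adjusted p = 0.132, edgeR), and the exact permutation test gave an unadjusted p = 0.0317. The estimate lay between -1.38 and -0.83 with each liver left out in turn, with adjusted p-values from 0.0940 to 0.257.

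Cd79b (ENSMUSG00000040592, chr11:106311341-106314762, reverse strand) had 27, 53, 25, 43 and 39 counts in NCACS and 38, 35, 29, 2 and 15 counts in CACS mice. CACS mice 16 to 18 lay within the NCACS range, while CACS mouse 19 was far below every other liver, with an exact Poisson 95% interval of 0.242 to 7.22 counts. edgeR put the log2 difference of CACS from NCACS livers at -0.72 (SE 0.487, adjusted p = 0.423, exact permutation p = 0.0873) and -0.42 without CACS mouse 19.

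T and B cell genes thus ranked the livers differently. Cd79a and Cd79b counts together were 2.24, 2.90, 0.591, 3.42 and 2.38 times those of Cd3e and Cd3g in NCACS mice 11 to 15. The corresponding ratios were 1.02, 3.35, 2.85, 0.25 and 1.33 in CACS mice 16 to 20. Raw counts of the B cell pair exceeded those of the T cell pair in 8 of 10 livers, in CACS mouse 16 barely (50 against 49). The exceptions were NCACS mouse 13, with many counts of the T cell pair, and CACS mouse 19, with few of the B cell pair. These counts are not corrected for transcript length or for expression per cell, so they do not compare numbers of B and T cells. Relative to 100 counts of Ptprc, the T cell pair had a median of 9.33 (5.42 to 13.8) in NCACS and 11.4 (6.57 to 12) in CACS livers. The B cell pair had a median of 19.9 (8.16 to 32.0) in NCACS and 15.2 (2.99 to 37.3) in CACS livers. The ranges of both ratios overlapped between groups.

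**Figure D4:**
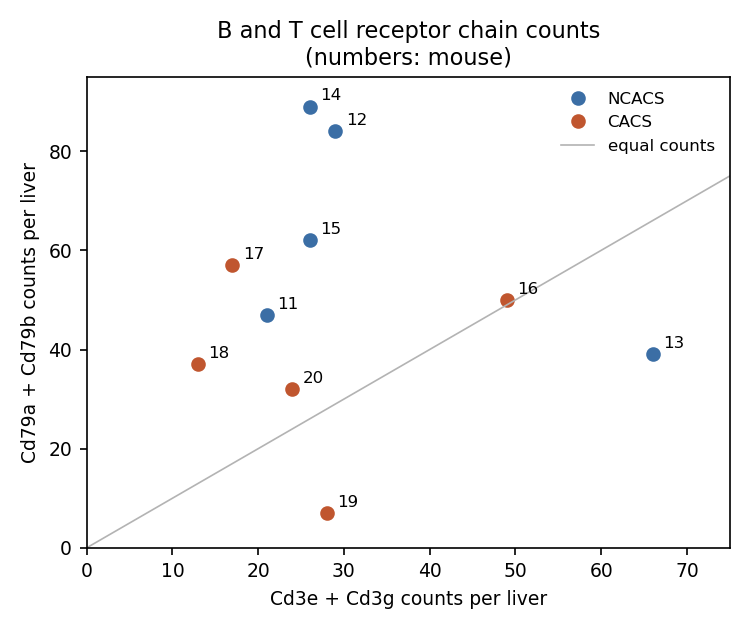
Each point is 1 liver, with summed raw counts of Cd3e and Cd3g on the x axis and of Cd79a and Cd79b on the y axis, numbered by mouse. NCACS mouse 13 and CACS mouse 19 lie below the line of equal counts, CACS mouse 16 almost on it, and the other livers above.

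The same split appeared in how the genes varied across livers, as a description over 10 livers that share group and depth. After group means of log2 CPM were subtracted, Pearson's r was 0.852 between Nkg7 and Ccl5, 0.886 between Coro1a and Cd52, 0.606 between Cd79a and Cd79b and 0.588 between Cd3e and Cd3g. Between Ptprc and the B cell genes it was -0.45 for Cd79a and 0.00 for Cd79b, and between Ptprc and the T cell genes it was 0.878 for Cd3e and 0.515 for Cd3g. Among 12107 other genes with at least 1 CPM, those most like the mean of the pan-leukocyte genes were Fcer1g (r = 0.979), which encodes a signalling chain of Fc receptors, Itgb2 (0.973) and Arhgdib (0.972). Those most like the T cell pair were Cd74 (0.964), H2-Ab1 (0.953) and H2-Aa (0.931), which encode the class II invariant chain and class II molecules. Those most like the NK pair were Erp29 (0.957), Ccdc88b (0.949) and Fam187b (0.944), and those most like the B cell pair were Haus3 (0.973), Gm17634 (0.910) and Hist2h2be (0.901). With group means subtracted, the same 3 genes led for the T cell pair, whereas Fcer1g, Ncf4 and Arhgdib, Erp29, Cstb and Pigt, and Tiprl, Haus3 and Scmh1 led for the pan-leukocyte genes, the NK pair and the B cell pair. These genes are the highest of 12107 correlations over 10 livers, where high values can arise by chance, and no link was tested.

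Compared per transcript length, as FPKM, which divides CPM by transcript length in kilobases, Cd52 had the highest mean level over the 10 livers (8.32), followed by Laptm5 (5.65), Coro1a (4.13), Ccl5 (3.02) and Ptprc (1.85). The mean FPKM level was 0.730 for Cd79b, 0.512 for Cd3g, 0.482 for Nkg7, 0.390 for Cd79a and 0.233 for Cd3e. The ranges over livers of neighbours in this order overlapped throughout, and without NCACS mouse 13 no liver had more than 2.69 FPKM of Ccl5.

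Wider lists of marker genes gave the context. All 20 genes of a pan-leukocyte list were tested, of which 0 passed the threshold, 19 were lower and 8 of them had an unadjusted p-value under 0.05 (edgeR; DESeq2 called 1, Rac2, and limma-voom 0). Their median log2 fold change was -0.53. Rac2, a GTPase of blood cells, had -0.88 (adjusted p = 0.0769) and Selplg, the selectin ligand PSGL-1, had -0.91 (adjusted p = 0.145). The most abundant members per length were Lcp1, the actin-bundling plastin (log2 fold change -0.21, adjusted p = 0.259), and Ptpn6, the phosphatase SHP-1 (-0.31, adjusted p = 0.215), both from edgeR.

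Of a list of 25 T cell genes, 13 were tested and 12 were below the low-count filter, among them Cd3d, Cd247, Cd2 and Cd5. None passed the threshold (0 genes in edgeR, 1 in DESeq2 and 0 in limma-voom), 12 of 13 were lower, 2 had an unadjusted p-value under 0.05, and the median log2 fold change was -0.37. The coreceptor gene Cd4, which macrophages can also express, had the largest difference (-1.04, adjusted p = 0.109, edgeR). The most abundant members were Zap70, a kinase of the T cell receptor pathway, with 153 to 466 counts and a log2 fold change of -0.37 (adjusted p = 0.413), and the transcription factor gene Tcf7 (-0.21, adjusted p = 0.584). Zap70 had more counts than Cd3e in every liver.

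Of 20 NK and cytotoxic genes, 7 were tested, with a median log2 fold change of -0.11, and 1 passed the threshold. Zbtb16, a transcription factor of NKT and innate lymphoid cells that other tissues also express, was higher in CACS livers, with 96 to 302 counts in NCACS and 280 to 2607 counts in CACS mice (log2 fold change 2.59, adjusted p = 0.0222, edgeR). With limma-voom its adjusted p-value was 0.0546, and it was 0.0569 without NCACS mouse 11. Klrb1c, the NK1.1 receptor gene, had 4 to 12 counts in NCACS and 8 to 38 counts in CACS mice (1.14, adjusted p = 0.144), and Klrk1, encoding NKG2D, had -0.56 (adjusted p = 0.386). Gzmk had 0 counts in all livers, and Prf1 and Gzma had at most 7 and 13 counts per liver and did not pass the low-count filter.

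Of 22 B cell genes, 21 were matched and 13 tested, with 12 lower, 6 of these with an unadjusted p-value under 0.05, and a median log2 fold change of -0.69. Spib fell by 1.42 on the log2 scale (adjusted p = 0.0420, edgeR). It encodes an ETS factor of B cells and plasmacytoid dendritic cells, and had 18 to 46 counts in NCACS and 4 to 14 counts in CACS mice, with no overlap of normalized levels. Its call did not hold with any 1 liver left out (adjusted p = 0.0537 to 0.0855) or on raw library totals (0.0571). The B cell scaffold gene Bank1 (-0.88, adjusted p = 0.0698, edgeR) passed in DESeq2. The antibody chain genes Ighm and Igkc were the most abundant, at -0.82 (adjusted p = 0.144) and -0.48 (adjusted p = 0.306). In CACS mouse 19, where Cd79b was at 2 counts, Cd22 had 27 counts, while Ighm still had 181.

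**Figure D5:**
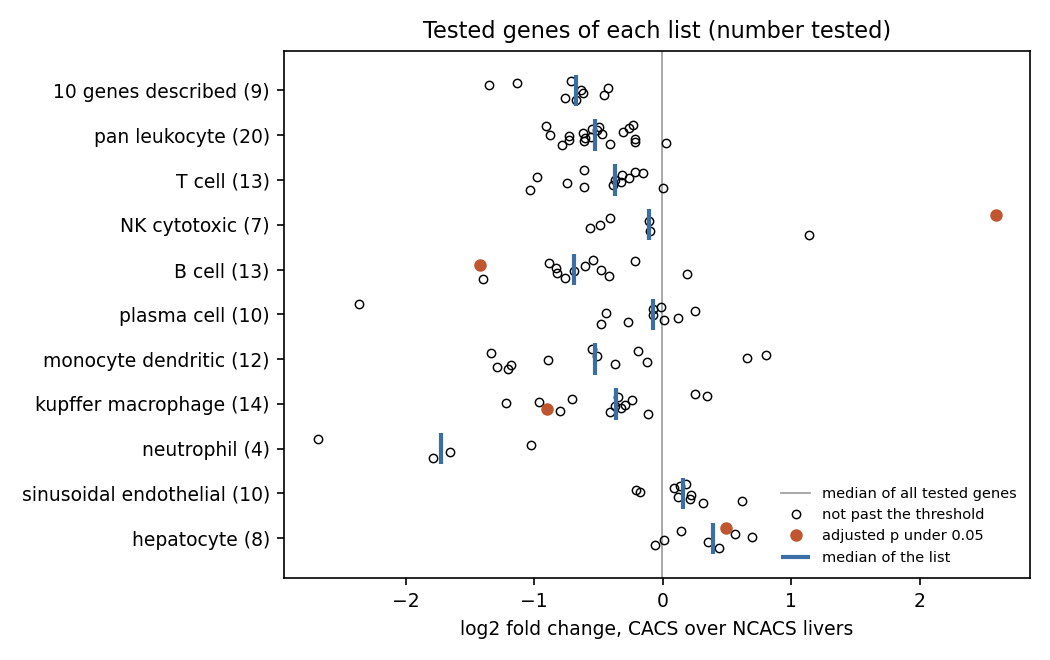
Each circle is the fitted log2 fold change of a tested gene in CACS over NCACS livers (x axis), by list with the number tested, filled where the adjusted p-value was under 0.05, with blue bars at list medians. The pan-leukocyte and B cell lists centre at -0.53 and -0.69 and the hepatocyte list at 0.39.

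Markers of other cells were read beside these genes. Of 14 Kupffer cell and macrophage genes, 12 were lower and 1, Cd5l, passed (log2 fold change -0.90, adjusted p = 0.0374, edgeR). Its call was lost in 8 of 10 fits with 1 liver left out (adjusted p = 0.0513 to 0.0862, edgeR), and DESeq2 called 3 genes of the list, Cd5l, Marco and Adgre1. The summed level of the list was 468 to 646 CPM in NCACS and 362 to 587 CPM in CACS livers. Pan-leukocyte genes are expressed in these cells too. All 4 tested neutrophil genes were lower (median log2 fold change -1.73, 0 called by edgeR, 2 by DESeq2 and 0 by limma-voom, 3 under 0.05 unadjusted), with the defining marker Ly6g at 0 to 2 counts. The summed level of the 13 neutrophil genes was 9.82 to 4138 CPM in NCACS and 7.63 to 331 CPM in CACS livers, and most of its upper end was Lcn2, which hepatocytes also make (4117 CPM in NCACS mouse 13 and 324 CPM in CACS mouse 16). All 7 class II genes were lower with 0 called by any of these tools and 0 under 0.05 unadjusted in edgeR. Of 8 hepatocyte genes, 7 were higher, among them Hnf4a, which passed (0.50, adjusted p = 0.0435, edgeR) but not in 9 of 10 fits with 1 liver left out (0.0516 to 0.0974) or without a filter (0.0763). Their sum was 66050 to 115900 CPM in NCACS and 109300 to 132900 CPM in CACS livers. Albumin took 4.49 to 8.51% of the counts in NCACS and 8.76 to 10.5% in CACS livers. Its share was 8.51, 8.05, 5.09, 8.08 and 4.49% in NCACS mice 11 to 15. The part of these other cells in the leukocyte values was not tested.

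The remaining lists held 0 calls in edgeR apart from the lung gene Sftpa1, whose call was lost with limma-voom and in 7 of 10 fits with 1 liver left out. Of the genes tested, 7 of 10 plasma cell, 11 of 15 chemokine and homing, 10 of 12 monocyte and dendritic cell and 4 of 4 proliferation genes were lower in CACS livers, with 2, 3, 2 and 0 of these under 0.05 unadjusted. The homing receptor gene S1pr1 (-0.50, adjusted p = 0.0765) and the dendritic cell gene Clec9a (0.66, adjusted p = 0.0603) did not pass in edgeR and passed in DESeq2. Of the stromal and blood lists, 2 of 10 sinusoidal endothelial, 5 of 9 stellate, 4 of 6 cholangiocyte, 2 of 4 erythroid and 1 of 2 platelet genes were lower, as were 2 of 4 lung epithelial genes. Ccl21a, a lymphoid-tissue chemokine, had 0 counts in every liver.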

How the data were processed

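RNA of 10 livers was measured by single-end RNA-seq of stranded poly(A) libraries. The authors aligned reads to GRCm38 with STAR 2.4.1d, counted them per gene with HTSeq 0.6.1 and deposited raw counts without normalization. The annotation release and strand setting are not given in the sources used here, and FVB reads on a C57BL/6 reference may be undercounted where alleles differ. The table had 43629 genes and 0 unused columns, and symbols came from GENCODE M21, which lacked 1081 identifiers.

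Counts were filtered with filterByExpr, TMM-scaled and compared in edgeR 4.0.16 (quasi-likelihood F-test, R 4.3.3). Standard errors and 95% intervals were derived from the F statistic. Log2 CPM used a prior count of 2, and FPKM used the longest principal transcript. Alternatives were DESeq2 1.42.0, limma-voom (limma 3.58.1), other scalings and filters, a robust fit, a threshold of 0.1 and leaving out each mouse. The fit was tested on simulated data. Intervals of counts cover counting error only.

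Within groups, no pair of libraries was a duplicate (chi-square divided by its degrees of freedom at least 46.1). The labels give 1 mouse per liver and no batch. Members, 18 marker lists (217 genes) and tests were chosen with earlier results of these data known. Beyond the 10 genes, the rule allowed per list the called genes and the 2 most abundant per length, of which those bearing on the 10 genes are given, and per gene group the 3 most correlated genes. Rac2, Selplg, Cd4, Klrb1c, Bank1, Cd22, Gzmk, Prf1, Gzma, Ly6g, Ccl21a, Csf3r, Cxcr2, S100a8, Elane, Camp, Marco, Adgre1, Sftpd and untested T cell genes were named after their values were seen. Some alleles and genes are not reported here. The sequences are RefSeq promoter windows and GENCODE coding sequences.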

Additional observations from a re-analysis of the deposited data

Results flagged for a closer look

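Each of the 10 genes was examined in each group of 5 livers for a liver far from the others, in 20 combinations, and 2 passed Dixon's 95% critical value of 0.71 on log2 CPM. By chance about 1 in 20 would do so. Both concerned Ccl5, which was high in NCACS mouse 13 (gap over range 0.806, 293 counts) and in CACS mouse 20 (0.789, 50 counts). Cd3e (0.7) and Cd3g (0.692) of NCACS mouse 13 and Cd79b of CACS mouse 19 (0.667) came close to that value. Cxcl10 was second highest, after NCACS mouse 13, in CACS mouse 20 (680 counts), and Gzmb likewise (20 counts).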

How the results depend on the processing

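No paired analysis was possible because no replicate number occurs in both groups. None of the 10 genes passed the threshold under any alternative run. With all livers kept, every tested member was lower in each setting: 9 of 9 in most, 10 of 10 without a filter and 5 of 5 with at least 10 counts in every sample. Nkg7 and Ccl5 alone changed direction, to 0.2351 and 0.7822 without NCACS mouse 13 (lowest values -0.6724 and -1.626, without NCACS mouse 14), and limma-voom gave them -0.07 and -0.03. DESeq2 gave no adjusted p-value for Ccl5. Over all genes 538 were called, 1386 with DESeq2, 1237 at a threshold of 0.1 and 178 (without NCACS mouse 11) to 519 with 1 mouse left out. Of the list genes 5 were called, 15 with DESeq2, 12 at 0.1, 3 without a filter, 3 with limma-voom and 0 to 4 with 1 mouse left out. The pan-leukocyte list had 1 call with DESeq2 and 1 at 0.1, the T cell list 1 with DESeq2 (Cd4) and the NK list 0 with limma-voom and 0 to 1 with 1 mouse left out. The B cell list had 3 with DESeq2 and 3 at 0.1, and 0 on raw library totals, without a filter and with at least 10 counts in every sample, and 0 to 1 with 1 mouse left out. Exact permutation p-values of single genes kept their side of 0.05 with another prior count or raw totals. The cause of these changes was not tested, beyond fewer samples or genes by construction. The T cell, B cell and Nkg7 counts were low, at 2 to 53 per liver, and single values of these genes carry wide counting intervals.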

Other observations

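Transcripts of lung epithelium, where the tumours of these mice lie, were found in the livers in uneven amounts. The surfactant gene Sftpc had 3, 43, 38, 42 and 44 counts in NCACS mice 11 to 15 and 88, 0, 105, 1 and 41 counts in CACS mice 16 to 20. The club cell gene Scgb1a1 had 0, 124, 86, 11 and 57 counts in the former and 7, 0, 30, 2 and 101 counts in the latter. NCACS mouse 11 and CACS mice 17 and 19 were at 3 counts or fewer for both genes, but had 52, 104 and 61 counts of Sftpa1 and 35, 63 and 28 counts of Sftpd, other surfactant genes. Neither Sftpc nor Scgb1a1 passed the threshold between groups (adjusted p = 0.836 and 0.670, edgeR). Sftpa1 passed it (log2 fold change 1.27, adjusted p = 0.0323, edgeR), but not with limma-voom (0.0584) or in 7 of 10 edgeR fits with 1 liver left out (0.0604 to 0.0681). The part of lung RNA in the leukocyte values was not tested.

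NCACS mouse 12 had the most counts of 2 neutrophil receptor genes, Csf3r (450, against 43 to 213 in the other livers) and Cxcr2 (57, against 2 to 19). The alarmin genes S100a8 and S100a9 had 79 and 216 counts there and 132 and 223 counts in NCACS mouse 13, against at most 40 and 56 in the other 8 livers. Of the 13 neutrophil genes listed, all but Elane, Camp and Ly6g had their most counts in NCACS mouse 12 or 13. Elane peaked in CACS mouse 20 (13 counts, against 5 and 9 in NCACS mice 12 and 13). Camp peaked in NCACS mouse 11 and CACS mouse 16 (5 counts each, against 1 in both). Ly6g peaked in CACS mouse 17 (2 counts, against 0 and 1).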
